A study of Canis lupus familiaris with 9 samples.

Results

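The 6 dogs with CD4+ peripheral T-cell lymphoma (PTCL) were treated here as 1 group, and every gene was described by how far its level spread among them. They were a male Boxer aged 6 years (Boxer 1), a female Boxer aged 8 years (Boxer 2), a male Boxer aged 6 years (Boxer 3), a female Cavalier King Charles Spaniel aged 3 years (other-breed 1), a female Rhodesian Ridgeback aged 4 years (other-breed 2) and a male Collie aged 11 years (other-breed 3). The labels give each lymphoma dog as castrated or spayed, but name neither the tissue sampled nor any sorting step for the tumours. The series holds 9 libraries in all. The other 3, CD4+ T cells sorted from intact female hounds aged 1 year, were used only for the levels and spread of the same genes. The values are normalised read counts: reads per gene divided by 1 factor per library. The lymphoma libraries held 13158356 to 18253154 reads assigned to genes.

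PTCL is a cancer of mature T cells. A tumour sample holds the malignant clone together with vessels, connective tissue and other immune cells, so a gene can differ between tumours through the clone's own programme or through what surrounds it. Each T cell clone carries 1 rearranged T cell receptor, built from a variable (V) segment chosen among many. Genes for splicing, translation, protein turnover and respiration are needed by every cell, while surface receptors and matrix proteins mark cell types and states.

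Genes were chosen by the SD of log2(value + 1) over the 6 lymphomas. Of 28008 features, 15112 reached a value of 10 in 3 or more of the 6 libraries, and 5826 of these had a mean of at least 500. Of the 5826, 5063 (86.9%) carried a gene symbol. The genes named below are the 25 with a symbol and the lowest SD, and the 25 with a symbol and the highest. Since the SD chose them, their SDs are a description with no test. An SD over 6 values is itself imprecise, and a pair of genes close in this order should not be read as ranked.

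The median SD was 0.350, on a scale where 1 unit is a factor of 2. The 10th percentile was 0.172 and the 90th percentile 0.788, a ratio of 4.58 between them. The SD was under 0.1 for 67 genes (1.15%), over 1 for 387 (6.64%) and over 2 for 116 (1.99%). Counting of reads alone would give a median SD of 0.0429, so for most of these genes the spread among tumours was far above the counting error. At the lower edge, SENP1 (0.0807) was the last gene inside the uniform set and MLLT10 (0.0810) the next outside. At the upper edge, LAMA4 (2.97) was the last inside and FNBP1L (2.89) the next outside.

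**Figure D1:**
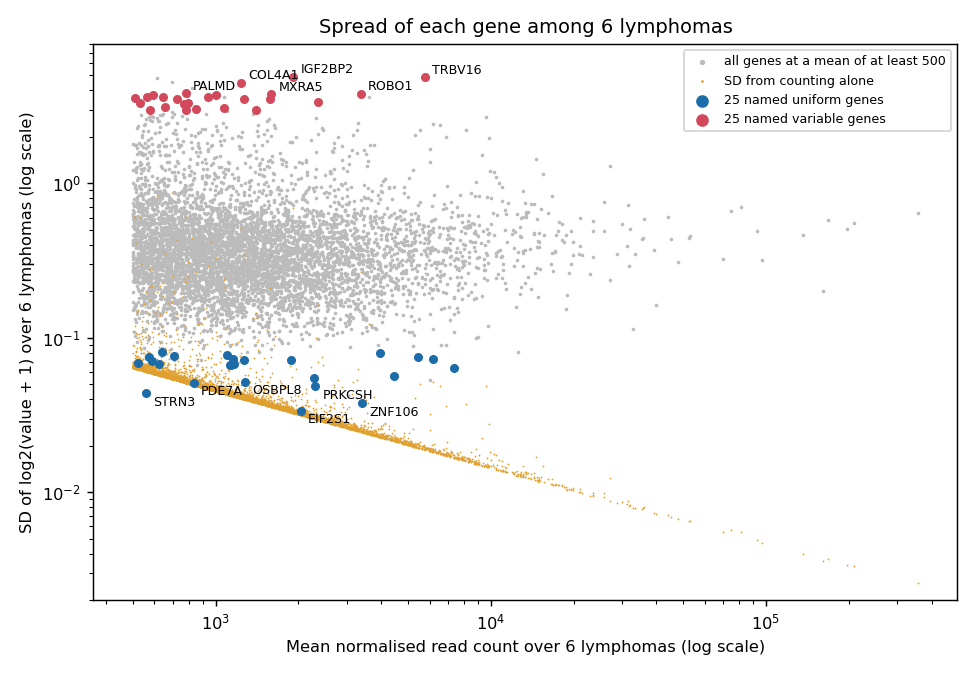
Each grey point is 1 of 5826 genes, with its mean normalised read count over the 6 lymphomas on the x axis and the SD of log2(value + 1) on the y axis, both on log scales. Yellow points give the SD expected from counting reads alone, and blue and red points are the 25 uniform and 25 variable genes. The uniform genes lie close to the yellow band, while the variable genes lie at an SD of 2.97 to 4.89.

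The gene of lowest SD was EIF2S1, the alpha subunit of the initiation factor eIF2, which is phosphorylated in the cell's stress response. Its values were 2023, 2054 and 2071 in Boxers 1 to 3 and 2112, 1970 and 2037 in other-breed 1 to 3. The highest library was 1.07 times the lowest, and the SD of 0.0338 was close to the 0.0315 that counting alone would give. ZNF106, a zinc finger protein, had 3493, 3462, 3488, 3444, 3270 and 3353 in the same order (SD 0.0378). STRN3, a regulatory subunit of protein phosphatase 2A, had 584, 554, 563, 547, 573 and 537 (SD 0.0438). In STRN3 the spread was no larger than the counting error, and no library stood apart.

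The remaining uniform genes covered much of the common machinery of a cell. PRKCSH, a glucosidase subunit that trims glycans in the endoplasmic reticulum, ranged from 2201 to 2389. PDE7A, which breaks down cyclic AMP, ranged from 804 to 881, and OSBPL8, a lipid carrier of the endoplasmic reticulum, from 1205 to 1347. Of these 3 genes none had a library that stood apart. ATRX, a chromatin remodeller, was the most abundant of the 25, at 6894 to 7718. PPP4R3A and ANKRD28, regulatory subunits of protein phosphatases 4 and 6, ranged from 4335 to 4812 and from 1042 to 1192. Together with STRN3 they were 3 phosphatase subunits.

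Proteins of the mitochondrion also appeared among them. YME1L1, a protease of the inner membrane, lay between 5719 and 6509, and CLPB, a chaperone that dissolves aggregates, between 490 and 546. USP30, a deubiquitinase of the outer membrane, lay between 1098 and 1230, and SYNJ2BP, another protein of that membrane, between 553 and 634. Genes of RNA processing formed a further set. PAPOLA, the main poly(A) polymerase, had 5153 to 5920, CNOT9, a subunit of the CCR4-NOT deadenylase, had 1167 to 1327, and CCNL2, a cyclin tied to splicing, had 1067 to 1199. CUL2, a scaffold of ubiquitin ligases (1039 to 1196), and SENP1, which removes SUMO (592 to 697), act on other proteins. These groupings were made after the genes were seen and were not lists chosen beforehand.

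DNAJC13, a co-chaperone of endosomes, ranged from 2197 to 2441, and NGDN from 577 to 664. The values of ZPR1 were 1104 to 1244, those of CEP95 1752 to 2043, those of CCDC59 517 to 595, those of TPD52L2 645 to 731 and those of PCNP 3664 to 4303. Across all 25, the highest library was 1.07 to 1.18 times the lowest. Their median SD was 0.0681 against a median counting SD of 0.0418, and 19 of the 25 had an SD under 2 times their counting SD. Which genes stand among the 25 depended on single libraries: leaving out each lymphoma in turn kept 8 to 15 of them, and only EIF2S1, ZNF106, STRN3, PRKCSH, PDE7A and OSBPL8 stayed whichever library was left out. With every library scaled to the same total, 6 of the 25 stayed. All 25 still lay among the 25% of genes with the lowest SD in each of these cases.

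**Figure D2:**
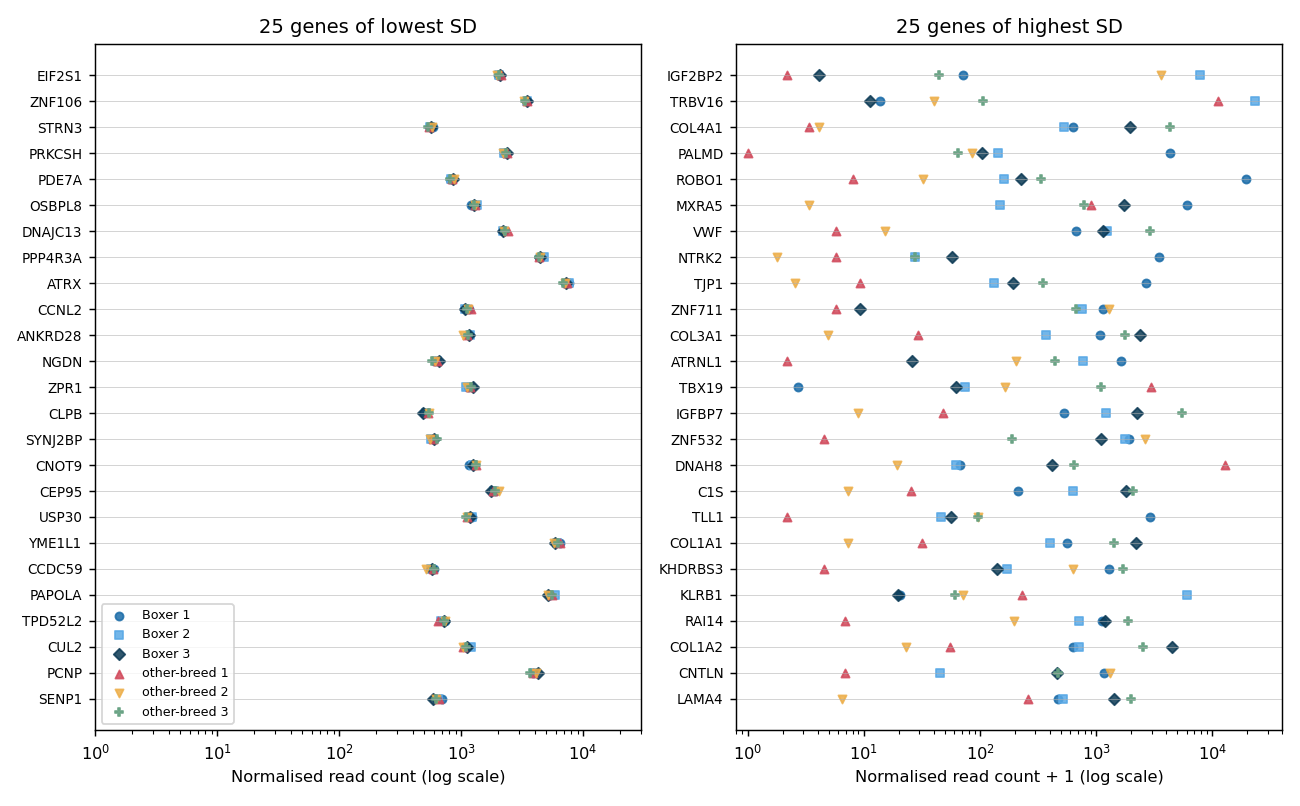
Values of the 25 uniform genes (left, normalised read count) and the 25 variable genes (right, normalised read count + 1) in each of the 6 lymphomas, on log scales. On the left the 6 symbols of a gene nearly coincide, within 1.18 times. On the right 21 of the 25 genes have a library under 10, and all 25 have a library over 1000.

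Gene lists show where this uniformity lay. The low-spread band is the 25% of the 5826 genes with the lowest SD, and the high-spread band the 25% with the highest, so 25% of all genes is the yardstick for each count. Of 44 genes of vesicle transport and ubiquitin at a mean of at least 500, 20 lay in the low-spread band and 2 in the high-spread band, with a median SD of 0.248. CLTC, the heavy chain of clathrin, had values of 5901 to 7999, and RAB7A, a GTPase of late endosomes, 3176 to 4576. Both lay in the low-spread band. Of 34 spliceosome and RNA-binding genes, 15 lay in the low-spread band and 0 in the high-spread band (median SD 0.256). SF3B1, a core subunit of the U2 particle, ranged from 16482 to 22260.

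RNA polymerase II, Mediator and chromatin genes counted 19 of 46 in the low-spread band and 4 in the high-spread band (median SD 0.263), with CHD4, the helicase of the NuRD complex, at 7911 to 10750. The proteasome counted 10 of 26 and 1 (median SD 0.266), and the translation factors 11 of 32 and 1 (0.289). EEF1A1, the elongation factor that brings tRNA to the ribosome, ranged from 134383 to 197589. Oxidative phosphorylation was spread more evenly, with 8 of 21 in the low-spread band and 4 in the high-spread band (0.309). In 5 of these 6 lists, all but oxidative phosphorylation, under 10% of the members lay in the high-spread band.

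Genes that laboratories often use as references were not among the most uniform. Of 16 at a mean of at least 500, only SDHA, a subunit of succinate dehydrogenase (1682 to 2461), lay in the low-spread band, and only B2M in the high-spread band. Their median SD of 0.353 was close to the 0.350 of all genes. ACTB, beta-actin, ranged from 52280 to 100926 (SD 0.323), and GAPDH from 9622 to 20564 (SD 0.376). EIF2S1 and ZNF106, at 0.0338 and 0.0378, were chosen for the lowest SD, so their lying below ACTB and GAPDH follows from that choice.

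Ribosomal protein genes behaved unlike the other translation genes: 0 of 38 lay in the low-spread band and 6 in the high-spread band, with a median SD of 0.395. RPS7 had values of 5819, 9814 and 19717 in Boxers 1 to 3 and 20821, 9930 and 17911 in other-breed 1 to 3. The summed value of the list was 337092, 344889 and 543812 in the Boxers and 495548, 362742 and 509465 in other-breed 1 to 3. Boxer 1, Boxer 2 and other-breed 2 were thus low together. The 7 mitochondrially encoded genes summed to 1707900 in other-breed 3 and to 657901 to 957506 in the other 5 lymphomas.

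Lists of proliferation and of inducible genes lay towards the variable end. Of 26 cell division genes, 20 lay in the high-spread band and 0 in the low-spread band (median SD 0.589). MKI67, the Ki-67 antigen, had 3917, 5856 and 5102 in Boxers 1 to 3 and 5012, 1557 and 3811 in other-breed 1 to 3, so other-breed 2 was lowest. TOP2A, the topoisomerase of dividing cells, had 9609, 19830, 17342, 12308, 7981 and 9780 in the same order. Here too other-breed 2 was lowest, and Boxer 2 highest. DNA replication genes, in contrast, counted 4 of 25 in the low-spread band and 5 in the high-spread band (median SD 0.365).

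Glycolysis counted 8 of 11 genes in the high-spread band (median SD 0.604), immediate early genes 12 of 17 (0.760), interferon-stimulated genes 5 of 7 (0.646), MHC class I and peptide loading 8 of 11 (0.562) and MHC class II 4 of 6 (0.589). B2M, the light chain of MHC class I, ranged from 21524 in Boxer 1 to 63812 in other-breed 3. EGR1, a transcription factor induced within minutes of stimulation, had 4832 in Boxer 1 and 929 in other-breed 2. TRIM22, an antiviral protein induced by interferon, had 219 in other-breed 2 and 2010 in other-breed 3. Except for IRF9, a subunit of the interferon signalling complex, none of the genes in these 5 lists lay in the low-spread band.

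Genes of the T cell receptor complex and its signalling lay towards the variable end: of 28, 2 lay in the low-spread band and 12 in the high-spread band (median SD 0.481). The 2 in the low-spread band were CD3G and VAV1. CD3G, a chain of the receptor complex, ranged from 12348 to 16954 (SD 0.183) and VAV1, an exchange factor below it, from 2329 to 3276 (SD 0.194). CD3E ranged from 13794 to 22222. All 6 libraries thus carried the defining chains at high level. CD8A, a chain of the co-receptor of cytotoxic T cells, had 1089 in other-breed 1 and 5.95 to 70.0 in the other 5, below the mean of 500, with CD8B at 6.25 to 90.6 in all 6. CD4 was not analysed here under its symbol.

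Other T cell genes differed widely. CD2, an adhesion receptor, had 2983, 14689 and 7170 in Boxers 1 to 3 and 19018, 11628 and 10589 in other-breed 1 to 3, so Boxer 1 stood lowest. FYN, a kinase of the receptor, had 21846 in other-breed 2 and 4336 to 10852 in the others. Among 21 T cell transcription factors, 2 lay in the low-spread band and 7 in the high-spread band (median SD 0.431). STAT3 (2851 to 3753) and MYC (1831 to 2723) were the uniform ones. LEF1, a partner of beta-catenin, had 24998, 37870 and 10364 in the Boxers and 6846, 5072 and 7558 in other-breed 1 to 3. IKZF1, encoding Ikaros, ranged from 1669 in Boxer 1 to 5267 in other-breed 2.

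Of 26 oncogenes and suppressors of T cell lymphoma, 6 lay in the low-spread band and 5 in the high-spread band (median SD 0.388), close to the share of all genes. JAK1, a kinase of cytokine receptors, was among the uniform ones at 15308 to 21448 (SD 0.189). BCL2, which blocks cell death, had 5599, 307 and 3318 in Boxers 1 to 3 and 997, 8700 and 2972 in other-breed 1 to 3 (SD 1.77). Its lowest library was Boxer 2 and its highest other-breed 2. CCND2, cyclin D2, had 23583 in Boxer 2 and 7341 in other-breed 3. Of 12 chemokine and cytokine receptors, 8 lay in the high-spread band and 1, IFNGR1, in the low-spread band (median SD 0.704). IL7R, the receptor for interleukin 7, had 3914, 894 and 2033 in the Boxers and 1118, 346 and 7671 in other-breed 1 to 3. CCR9, a receptor that guides T cells to the gut and thymus, had 26420 in other-breed 1 and 6112 to 15476 in the others.

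**Figure D3:**
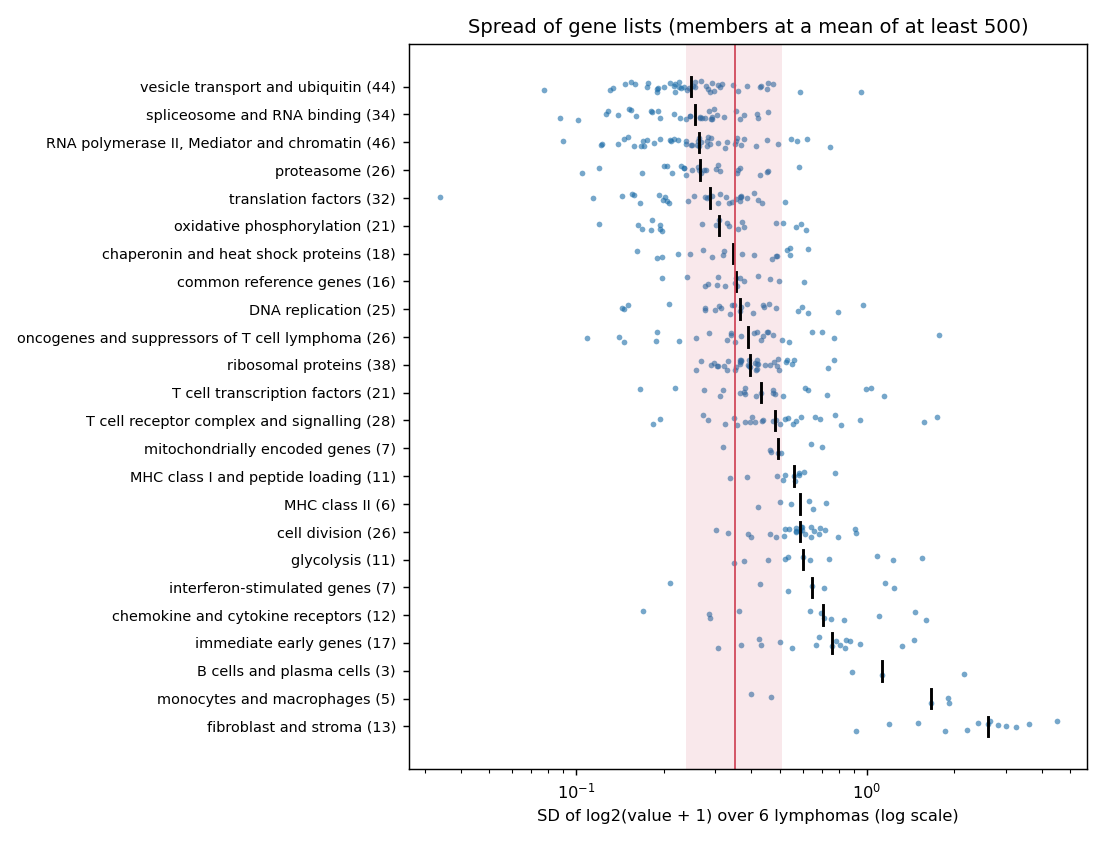
SD of log2(value + 1) over the 6 lymphomas for the members of each gene list with 3 or more members at a mean of at least 500 (points; log x axis), with the list median as a black bar and the number of members in parentheses. The red line is the median of all 5826 genes (0.350) and the band runs from their 25th to their 75th percentile. Lists of vesicle transport, splicing and the proteasome lie to the left, and the 13 stromal genes (median 2.6) farthest to the right.

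The gene of highest SD was IGF2BP2, an RNA-binding protein of embryonic and tumour cells. It had 69.7, 7784 and 3.12 in Boxers 1 to 3 and 1.18, 3609 and 43.5 in other-breed 1 to 3 (SD 4.89). Only Boxer 2 and other-breed 2 had it at high level. ZNF711, a zinc finger protein, split the tumours otherwise: 1141, 752, 8.33, 4.71, 1278 and 671 in the same order, with Boxer 3 and other-breed 1 low. KHDRBS3, an RNA-binding splicing regulator, had 1285, 169, 138, 3.53, 630 and 1708. It was lowest in other-breed 1.

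Several variable genes were high in 1 tumour. In Boxer 1, ROBO1, a receptor for Slit guidance cues, had 19514 against 7.06 to 332 in the other 5, NTRK2, a neurotrophin receptor, had 3450 against 0.789 to 56.2, and PALMD had 4286 against 0 to 141. TLL1, a secreted protease related to the one that trims procollagen, had 2893 there against 1.18 to 95.5, and TJP1, a tight junction scaffold, 2692 against 1.58 to 350. In Boxer 2, KLRB1, the CD161 lectin receptor of natural killer and some T cells, had 6050 against 18.7 to 230. In other-breed 1, DNAH8, a dynein heavy chain of sperm flagella, had 12884 against 18.1 to 644. For 15 of the 25 variable genes, 1 library held more than 50% of the value summed over the 6.

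Other variable genes were at or near 0 in 1 tumour and present in the rest. ZNF532, a zinc finger protein, had 3.53 in other-breed 1 and 186 to 2623 in the other 5. RAI14 had 5.89 there against 195 to 1868. CNTLN, a protein of the centrosome, had 5.89 there against 44.6 to 1316, and ATRNL1 1.18 against 25 to 1623. These 4 genes were lowest in other-breed 1. TBX19, a T-box transcription factor known from the pituitary, had 1.70 in Boxer 1 and 61.4 to 2970 in the others, with its highest value in other-breed 1. MXRA5, a protein of the extracellular matrix, had 2.37 in other-breed 2 and 148 to 5995 in the other 5. Of the 25 variable genes, 12 were lowest in other-breed 1 and 10 in other-breed 2.

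The largest single theme among the variable genes was connective tissue and vessels. Of 13 fibroblast and stroma genes at a mean of at least 500, 13 lay in the high-spread band, and 11 were among the 300 genes of highest SD, which hold 5.15% of all 5826. COL4A1, a collagen of basement membranes, had 626, 527 and 1956 in Boxers 1 to 3 and 2.35, 3.15 and 4304 in other-breed 1 to 3. VWF, the clotting factor stored in endothelium, had 673, 1244, 1136, 4.71, 14.2 and 2927 in the same order. In both genes other-breed 1 and 2 were lower than each of the other 4. In bulk samples such as these, fewer cells of a type and less RNA per cell cannot be told apart.

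COL3A1, the collagen of reticular fibres, had 1076, 370, 2397, 28.2, 3.94 and 1749. COL1A1 and COL1A2, the chains of type I collagen, had 30.6 and 54.1 in other-breed 1, 6.31 and 22.1 in other-breed 2, and 396 to 4456 in the other 4 tumours. IGFBP7, a secreted binding protein of vessels, and C1S, a complement protease made by fibroblasts and liver, had 47.1 and 24.7 in other-breed 1 and 7.89 and 6.31 in other-breed 2. In the other 4 tumours IGFBP7 ranged from 524 to 5467 and C1S from 212 to 2087. LAMA4, a laminin of vessel walls, departed from this: it had 258 in other-breed 1, 5.52 in other-breed 2 and 466 to 2004 in the others.

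Over the whole marker lists, the summed value of the 28 measured stromal genes was 16974, 19470 and 44327 in Boxers 1 to 3 and 18435, 9323 and 63866 in other-breed 1 to 3. In other-breed 1 the single gene VIM, which T cells also express, supplied 11134 of that sum. Of the 28 genes, 4 were at 0 in other-breed 1 and 4 in other-breed 2, among them DCN, against 0 in the other 4 lymphomas. The 16 measured endothelial genes summed to 2318, 4381, 6267, 1292, 498 and 9937, with 4 at 0 in other-breed 1 and 4 in other-breed 2. Macrophage genes summed to 10917 to 31105, and CSF1R, the receptor that maintains macrophages, had 34.1 in other-breed 1, 168 in other-breed 2 and 447 to 1246 in the others. The part of such cells in the spread of other genes was not tested. Without other-breed 1 and 2, 8 of the 25 variable genes and 5 of the 25 uniform genes stayed in their sets.

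Of the other marker lists, some also had other-breed 1 and 2 lowest. Dendritic cell genes summed to 2149, 2357 and 2309 in Boxers 1 to 3 and 1275, 1323 and 2723 in other-breed 1 to 3. Epithelium and liver genes summed to 5364, 6925, 4262, 1036, 1707 and 5297 in the same order. In both lists other-breed 1 and 2 were lowest, as for the endothelial genes. The stromal sums differed: other-breed 2 was lowest, but Boxer 1 (16974) lay below other-breed 1 (18435). Over the 6 lymphomas neutrophil genes summed to 201 to 895 and erythroid and platelet genes to 365 to 483. B cell and plasma cell genes summed to 2320 to 8077. JCHAIN, the joining chain of secreted antibodies, ranged from 906 in Boxer 1 to 5205 in Boxer 2. MS4A1, the CD20 antigen of B cells, had 251, 302 and 121 in the Boxers and 5123, 127 and 1535 in other-breed 1 to 3. PAX5, a transcription factor that also defines B cells, did not follow it: in other-breed 1 it had 27.1, within the range of the other 5 lymphomas (1.58 to 36.0).

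T cell receptor V segments were extreme in another way. TRBV16, a beta chain V segment, had 12.7, 23157 and 10.4 in Boxers 1 to 3 and 11196, 39.4 and 105 in other-breed 1 to 3 (SD 4.87). Only Boxer 2 and other-breed 1 had it at high level. Of all reads on the 6 TRBV segments that carry a symbol, TRBV16 held 99.8% in Boxer 2 (24426 of 24465 reads; exact 95% interval 99.8% to 99.9%) and 98.9% in other-breed 1 (9512 of 9617; 98.7% to 99.1%). TRBV3-1 held 89.5% in other-breed 2, of 693 reads. Boxer 1, Boxer 3 and other-breed 3 had 50, 53 and 219 reads on these segments, and their leading segments held 30%, 47.2% and 45.2%.

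Among the 5 TRAV segments of the alpha chain that carry a symbol, TRAV34 held 99.5% of 1464 reads in Boxer 2, and TRAV24 held 89.7% of 359 reads in other-breed 3. The remaining lymphomas had 0 to 22 reads on them. In the 3 controls the leading segment held 40.7% to 56.0% of TRBV reads and 25.1% to 29.2% of TRAV reads, from 610 to 4616 reads. The leading TRBV segment was TRBV16 in each of the 3 controls, and also in other-breed 3 (45.2%). Segments without a symbol do not enter these shares, and the intervals cover counting error only. A tumour with few reads here may use a segment outside the named ones.

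To see which genes varied together, the 300 genes of highest SD (1.19 or more) were joined by the Pearson correlation of their log2 values over the 6 lymphomas. The correlations rest on 6 points and are given as a measure of likeness only. Joined at a mean r of about 0.8 or more, they formed 62 groups, of which 10 were single genes. Of the 62, 9 held at least 8 genes, 125 genes in all. Single pairs within a group may have r under 0.8. The first held 33 genes, with HSPG2 (perlecan of basement membranes), COL4A1, CLU, FSTL1, PECAM1, VWF, CTNNA1 and SPARC closest to the group mean. Of these 33, 9 were on the stromal list, 3 on the macrophage list, 2 on the endothelial list and 2 on the immediate early list. Their mean deviation on the log2 scale was -3.16 in other-breed 1 and -2.37 in other-breed 2, and 0.74 to 2.0 in the other 4.

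A pair of groups was low in Boxer 1 alone or nearly so. The group of 18 genes around SLC15A1, AEBP2 and P2RX7 had a mean deviation of -3.49 there and 0.25 to 1.08 elsewhere. SLC15A1, a peptide transporter of the intestine, had 126 in Boxer 1 against 3500 to 10964. P2RX7, a channel opened by extracellular ATP, had 71.4 against 737 to 1577. PDE3B, which breaks down cyclic AMP, had 867 against 7293 to 14361. The group of 8 around TBX19, JUP and GNAI1 deviated by -3.18 in Boxer 1 and by 1.77 and 1.88 in other-breed 1 and 3. GIMAP2 of the larger group and GIMAP4 of the smaller one, GTPases of lymphocytes, had 90.1 and 128 in Boxer 1, the lowest of the 6 libraries for each.

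Other-breed 1 was the lowest library in a further pair. The 14 genes around BAZ2B, FNBP1L and NIPAL2 deviated by -3.96 there and by -0.63 in Boxer 3. Among them MAN1A1, a mannosidase of the Golgi, had 400 against 3325 to 5108, and NDRG1, a stress-responsive gene, had 240 against 1782 to 4000. The 9 genes around DCHS1, ZNF532 and ZBTB10 deviated by -3.23 in other-breed 1 and by -1.05 in other-breed 3. ADD3, which links actin to the membrane skeleton, had 426 and 1077 in these libraries and 3493 to 6470 in the others. PTK2, the focal adhesion kinase, had 350 and 613 there and 1087 to 4303 in the others.

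Other-breed 2 was low in a group of 13 genes (mean deviation -3.95 against 0.63 to 1.12). SH2D1A, the adaptor SAP of the SLAM receptors, had 13019, 12213 and 5310 in Boxers 1 to 3 and 18484, 126 and 8371 in other-breed 1 to 3. CD84, a receptor of that family, had 364 in other-breed 2 and 1459 to 3373 in the others. PADI2, which converts arginine to citrulline in proteins, had 232 against 4867 to 15838, and THY1, a surface glycoprotein, 144 against 815 to 3322. SH2D1A and CD84 were joined into this group by these same values, so a shared lowest library follows from that.

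Boxer 1 and other-breed 2 were low together in 11 genes around PTPRB, TGFBR3 and BST2 (-2.86 and -1.96). BST2, an antiviral membrane protein, had 39.1 and 63.1 in these libraries and 484 to 1179 in the others, and JAML, an adhesion molecule, had 168 and 274 against 712 to 5043. TGFBR3, a co-receptor for TGF-beta, had 82.4 and 276 against 731 to 3085. For these 3 genes both libraries lay below each of the other 4.

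The 2 groups left had both high and low libraries. The 11 genes around EPB41L2, SCML2 and TLL1 deviated by 2.72 in Boxer 1 and by -3.52 in other-breed 1. MAP1B, a microtubule protein of neurons, had 2834 in Boxer 1, 88.3 in other-breed 1 and 283 to 1237 in the others. The 8 genes around PDIA5, TNLG8B and NT5E deviated by 3.08 in other-breed 1, by 1.85 in other-breed 3 and by -1.95 in other-breed 2. NT5E, the CD73 ectoenzyme that makes adenosine, had 1682 and 834 in these libraries and 74.1 to 338 in the others. DNAH8 and MS4A1 belonged to the same group. Joining 150 or 600 genes in place of 300 gave 3 or 31 groups, so the number of groups depends on that choice.

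**Figure D4:**
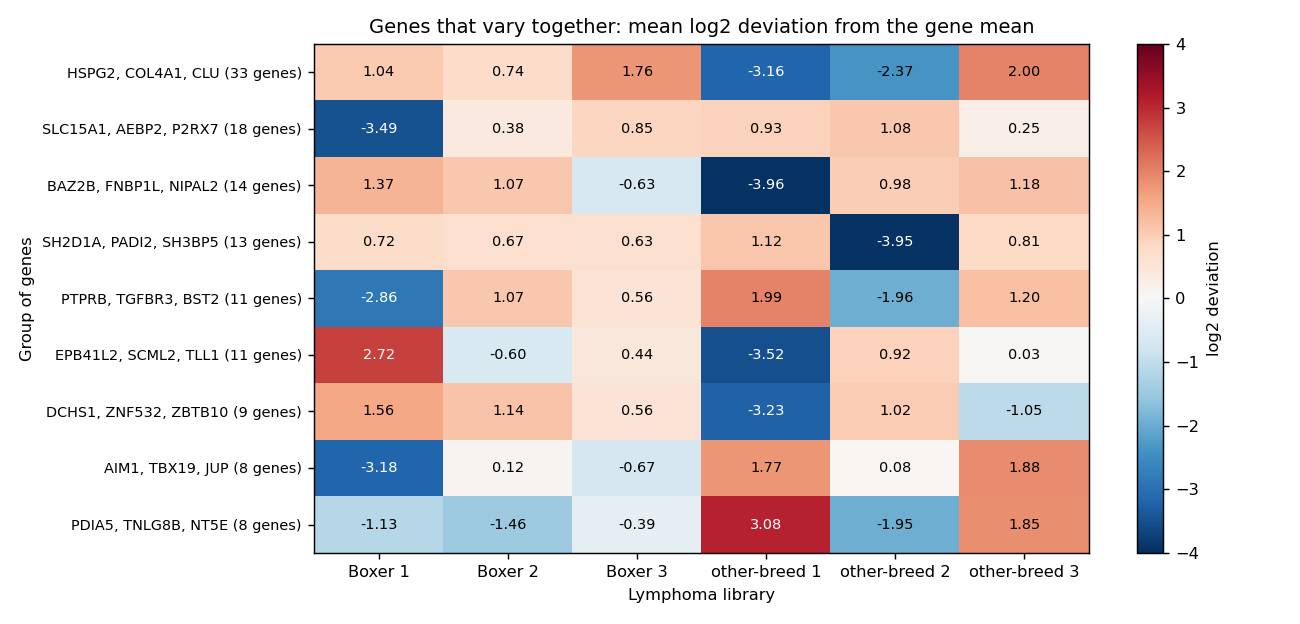
Mean log2 deviation from the gene's mean over the 6 lymphomas (colour and number) for each of the 9 groups of at least 8 genes, in rows named by their 3 leading genes, and each lymphoma library in columns. The first group is at -3.16 and -2.37 in other-breed 1 and 2, and most other groups have 1 library far below the rest.

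Among the 300 most variable genes past the filter on the mean, the most frequent shape was that of a gene low in 1 tumour. When the 6 log2 values of a gene were split at their widest gap, 142 of the 300 most variable genes (47.3%) had 1 library alone below the gap, against 30.9% of all 5826 genes. Only 44 (14.7%) had 1 library alone above it, against 28.1% of all. Other-breed 1 was alone below in 44 genes (14.7%, against 2.54% of all), among them MMRN2, PALMD, ZNF532 and KHDRBS3. Boxer 1 was alone below in 38 (12.7% against 10.1%), among them DHX32, SLC15A1, SYTL2 and TBX19. For other-breed 2 it was 28 (9.33% against 7.69%). The shares of Boxer 1 and other-breed 2 were thus near those of all genes. The pattern with other-breed 1 and 2 together below the gap held 25 of the 300 (8.33%) and 0.961% of all genes. COL4A1, VWF, CTNNA1, PECAM1, TJP1 and SPARC showed it most widely. The SD chose the 300, and a value near 0 widens a gap on the log scale, so these shares are a description. To pass the filter on the mean, a gene near 0 in all tumours but 1 needs a very large value in that tumour. A gene near 0 in only 1 tumour passes more easily. How far this filter set the excess of genes with 1 library below the gap over those with 1 above was not tested.

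Boxer 3 stood alone below in 12 genes (4%, against 3.64% of all) and other-breed 3 in 11 (3.67% against 3.93%). Both shares were near those of all genes. ARHGAP15, a regulator of the GTPase Rac, had 37.5 in Boxer 3 and 807 to 1477 in the other 5. GLIS3, a zinc finger transcription factor, had 57.3 there against 251 to 2321. In other-breed 3, CDCA7L, a partner of MYC, had 55.2 against 455 to 2312, and TLE1, a co-repressor, 134 against 671 to 2338. Boxer 1 stood alone above in 16 genes (5.33%, against 4.70% of all). SYK, a kinase that signals from immune receptors, had 3344 in Boxer 1 and 112 to 333 in the others, and FADS2, a fatty acid desaturase, 3023 against 25.9 to 330.

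Some of the variable genes were neighbours in gene order. Gene order was taken from the RefSeq annotation of the dog assembly UU_Cfam_GSD_1.0, which placed 4803 of the 5063 genes with a symbol and differs from the build of the files, so no coordinates are given. Neighbours, here and below, are genes next to each other among these 4803, and other genes may lie between them. Of the 300 most variable genes 230 were placed, and 33 (14.3%) had another of the 300 next to them, against 9.22% of all placed genes. This was not particular to variable genes. Of the 300 most uniform genes 260 were placed, and 46 (17.7%) had another of those 300 next to them, against 10.3% of all. The variable genes made 17 pairs, of which 5 had r of at least 0.8. CD5 and CD6, receptors that restrain T cell receptor signalling, were such a pair (r = 0.99). CD5 had 265 in Boxer 2 and 3546 to 4320 in the other lymphomas, and CD6 had 179 against 2565 to 4336. Both were low in Boxer 2 alone.

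ITGA4, the alpha 4 integrin that directs lymphocytes out of vessels, had 3901 in Boxer 3 and 16400 to 38463 in the others, and its neighbour CERKL had 250 against 1215 to 2719. COL4A1 and COL4A2 lie head to head and share the pattern of the stromal genes. AEBP2 and PYROXD1 were low in Boxer 1, at 96.8 and 40.8 against at least 698 and at least 504 in the others. SLC37A1 and NDUFV3 were highest in Boxer 1, at 7938 and 12438. Such neighbours need not touch in the genome. Only where a pair does overlap may reads be shared, without information on strand.

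Beyond pairs, whole stretches of neighbouring genes moved together by a modest amount in 1 tumour. This was looked at after the data had been seen. Each gene's log2 value was set against its median over the 6 lymphomas, and the median of these deviations was taken over 172 windows of 25 neighbouring genes. In 24 windows (14.0%) it passed 0.6 in either direction in at least 1 lymphoma, and in none did it in a control set against the median of the 3 controls, where the farthest window lay 0.421 from 0. With 3 libraries the median of a gene is 1 of them, which by itself makes such deviations smaller than with 6. Boxer 1 had 11 windows below and 1 above, Boxer 2 had 7 above, Boxer 3 had 3 below, and other-breed 2 had 2 below and 1 above. Other-breed 1 and 3 had 0. The files hold no measurement of DNA.

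Among whole sequences of that assembly, the farthest below had 164 placed genes from TRAPPC12 to ADORA3. The windows PRKD3 to KRCC1 (-1.02) and ZNF638 to RNF115 (-1.01) reached farther below in Boxer 1. The median deviation of the whole sequence was -0.90 in Boxer 1, which is 53.4% of the median level, and -0.04 to 0.18 in the other 5. Of the 164 genes 141 were lowest in Boxer 1, against 23.4% of all placed genes. CD2, which lies in it, had 2983 in Boxer 1 and 7170 to 19018 in the others. DNMT3A, a DNA methyltransferase mutated in blood cancers, had 1123 against 1489 to 2453, and MCL1, a survival factor, 2093 against 2919 to 4333. All 3 were lowest in Boxer 1.

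A second sequence, of 79 genes from PDIA4 to MCPH1, had a median deviation of -0.81 in Boxer 1. There 68 of the 79 (86.1%) were lowest, against 23.4% of all placed genes. This sequence contains EZH2, the methyltransferase of Polycomb, at 793 in Boxer 1 and 873 to 2571 in the others, and KMT2C at 2092 and 3020 to 4837. The 68 genes from WDFY2 to CHAMP1 deviated by -0.74 in Boxer 3, where 50 (73.5%) were lowest, against 14.0% of all placed genes. RB1, the retinoblastoma suppressor, lies there and had 935 in Boxer 3, with a similar 936 in other-breed 2 and 1741 to 2098 in the other 4. The 53 genes from TRIM11 to FAM3C deviated by -0.84 in other-breed 2 and by -0.65 in Boxer 3, so this stretch was low in both. The 50 genes from PRKDC to MTDH deviated by -0.56 in other-breed 3 and by -0.40 in other-breed 1.

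Among windows, those above the median were most frequent in Boxer 2 (7 of 9). Among whole sequences there, the 102 genes from NIPAL2 to ANKRD17 deviated by 0.59 and the 40 from EXOC2 to TRIM27 by 0.55. Of these, 72 (70.6%) and 32 (80%) were highest in that library, against 23.5% of all placed genes. MYC, which lies in the first, did not follow it, at 2122 in Boxer 2 and 1831 to 2723 in the others. Among windows the farthest were TGFB1 to ZFP14 (1.16), ATP2B4 to IARS2 (1.03) and P3H1 to TRAPPC3 (0.97), all in Boxer 2. In the first and second of these windows the deviations were mixed, with a lower quartile of -0.50 and -0.54. The whole sequence holding the second, 46 genes from ATP2B4 to TAGLN2, lay below the median in Boxer 2, by -0.39. Its quartiles there were -0.66 and 1.20. In Boxer 1, 3 whole sequences lay above the median: the 99 genes from ZFP62 to RAB14 by 0.48, the 42 from CGGBP1 to PRMT2 by 0.42 and the 145 from NAPB to PCMTD2 by 0.38. In other-breed 2 the 259 from CCT6A to LRRC40 by 0.35.

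**Figure D5:**
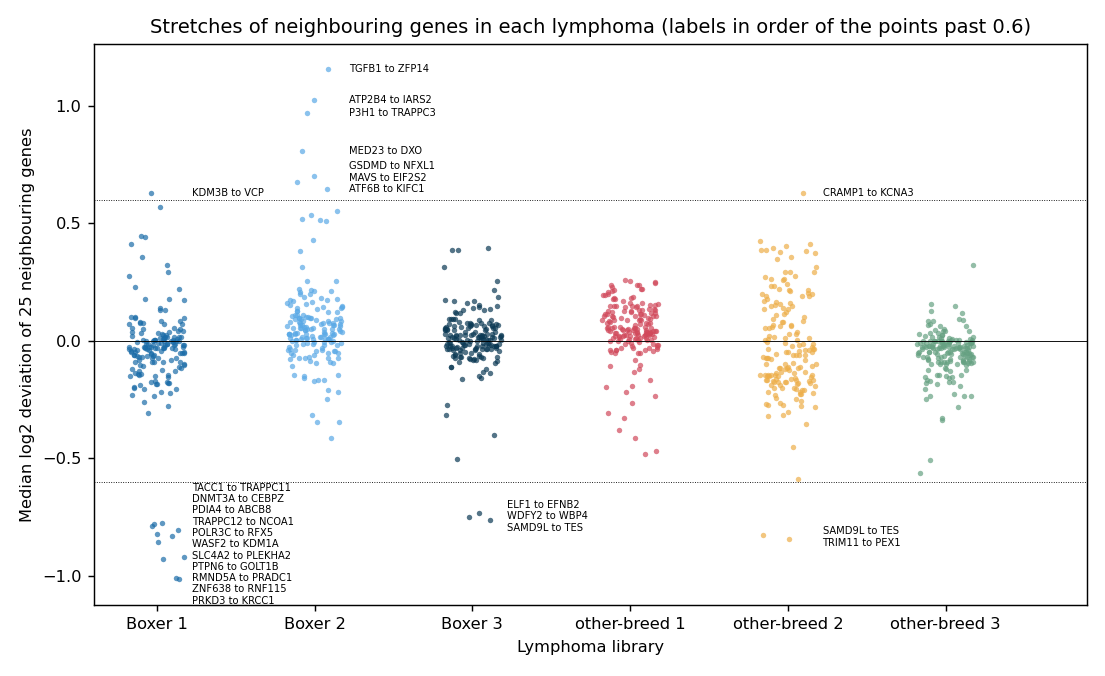
Each point is the median log2 deviation of 25 neighbouring genes from their medians over the 6 lymphomas (y axis), in each lymphoma library (x axis, points spread sideways at random), with dotted lines at 0.6 and -0.6. Windows past a line are named by their first and last gene. Boxer 1 has 11 windows below the lower line, and Boxer 2 has 7 above the upper one.

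A few of the most variable genes lay in these windows. Of 30 placed genes among the 300 in which Boxer 1 stood alone below the gap, 5 (16.7%) lay in the windows that were low in Boxer 1, namely AEBP2, CLEC2B, FAT1, GIMAP2 and PYROXD1. Those windows held 5.73% of all placed genes. Both the genes and the windows were chosen by low values in Boxer 1, so an excess is partly built in. Among genes alone below, the counts were 1 of 8 in Boxer 3 (windows holding 1.56%) and 1 of 21 in other-breed 2 (1.04%). Among genes alone above, they were 0 of 12 in Boxer 1 (0.521%) and 0 of 4 in Boxer 2 (3.64%). Other-breed 2 had 1 of 2 alone above (0.521%). The remaining libraries and directions had no such windows.

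The same genes were then described in the 3 controls, which had no part in choosing them. The median SD over the 3 controls was 0.160 for all 5826 genes, 0.144 for the 300 most uniform among the lymphomas and 0.354 for the 300 most variable. Of the 300 most uniform, 90 (30%) lay in the 25% of lowest SD among the controls. Of the 300 most variable, 201 (67.0%) lay in the 25% of highest SD. However, 96 of these 300 had a control mean under 50, where counting error is large. For the 204 with a mean of at least 50, the median was 0.264. The 25 uniform genes had control SDs of 0.0137 to 0.317 (median 0.127), and for 18 of the 25 variable genes every control lay under 50. The SDs rest on 3 libraries, and no difference between lymphomas and controls was tested.

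Features without a symbol were more frequent at the variable end. They made up 61 of the 300 most variable (20.3%), 32 of the 300 most uniform (10.7%) and 13.1% of all 5826. The median level was 907 for the 300 most variable and 1372 for the 300 most uniform, against 1205 for all.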

How the data were processed

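RNA from 9 canine libraries was enriched with oligo(dT) and copied with random hexamers, per the labels' protocols. The submitters' processing notes name TopHat2, HTSeq, DESeq2 and the build CanFam3.1, without versions. Whether counting used strand is not stated in the sources used here. The values the authors deposited are a normalised signal: the read count of a gene divided by 1 factor per library. All values (100%) were whole multiples of 1 read within 0.01 reads, so reads were recovered. They numbered 13158356 to 18253154 per lymphoma.

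The members and gene lists were chosen with earlier results of these data known. Genes that reached a value of 10 in 3 or more of 6 lymphomas and had a mean of at least 500 were ranked by the SD of log2(value + 1). The counting SD came from the recovered reads. Named were the 25 genes with a symbol at each end, up to 8 genes per group, up to 4 per list and band of SD and up to 6 per pattern. Other genes named as examples (ACTB, GAPDH, CD3E, CD8A, CD8B, PAX5, DCN and genes of neighbour pairs and stretches) were chosen after their values were seen. The 300 most variable genes were joined by average linkage at a distance of 0.2 (1 minus r). No group was compared with another, so p-values are absent. Single libraries far from the rest were looked for with Dixon's ratio. The labels of Boxers 1 and 3, and those of the controls, do not state that these are separate dogs. The scripts were tested on simulated data. Alternatives were other scalings, filters and spread measures, edgeR 4.0.16 tagwise dispersions, and each lymphoma left out in turn. A planned look at promoter letters was not run, and a few genes are not reported here. Python 3.11.15, pandas 2.3.3 and R 4.3.3 were used.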

Additional observations from a re-analysis of the deposited data

Results flagged for a closer look

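Of 60 items examined (the 25 uniform genes, the 25 variable genes, the summed markers of 8 other cell types, the total reads and the share of the leading TRBV segment), 3 had 1 library far from the other 5, where the gap to the nearest library, as a share of the whole range on the log2 scale, passed Dixon's 95% critical value for 6 samples. Chance gives about 1 such item in 20. The 50 genes were chosen by the SD of the same 6 values, so these flags are a description. In PPP4R3A, Boxer 2 was highest at 4812 against 4335 to 4451 in the others, and the gap was 0.748 of the range. In CCDC59, other-breed 2 was lowest at 517 against 568 to 595 (0.669). In LAMA4, the laminin of vessel walls, other-breed 2 was lowest at 5.52 against 258 to 2004 (0.643).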

How the results depend on the processing

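The median SD of 0.350 became 0.380 with a mean of at least 200, 0.279 as a median absolute deviation, 0.465 as the square root of edgeR's tagwise dispersion and 0.327 without other-breed 1 and 2, and lay between 0.323 and 0.356 with each lymphoma left out in turn. The ratio of the 90th to the 10th percentile (4.58) became 4.38 with equal library totals, 4.44 with a value of 10 in all 6 libraries, 5.39 and 4.07 with a mean of at least 200 and 1000, 4.15 with a median of at least 500, 6.03 for the median absolute deviation, 4.71 with the counting part removed, 1.87 for edgeR's dispersion, 5.61 without other-breed 1 and 2, and 4.81 to 5.14 with each lymphoma left out. Of the 25 uniform genes, 6 were kept with equal totals, 7 with the median absolute deviation, 9 with edgeR's dispersion, 5 without other-breed 1 and 2 and 8 to 15 with each lymphoma left out. Of the 25 variable genes, 4 were kept with a value of 10 in all 6 libraries, 14 and 10 with a mean of at least 200 and 1000, 9 with a median of at least 500, 11 with the median absolute deviation, 8 without other-breed 1 and 2 and 16 to 22 with each lymphoma left out. IGF2BP2, TRBV16, COL4A1, VWF and ZNF711 stayed whichever lymphoma was left out. The stricter filters remove genes that are near 0 in a library. The number of groups was 9, and 3 or 31 with 150 or 600 genes, 4 or 14 at a distance of 0.1 or 0.3. The number of windows past 0.6 was 24 of 172, 50 of 299 with 15 genes per window, 9 of 76 with 50, and 39 of 260 with a mean of at least 200. Of 824 recomputed SDs of single genes, 61 moved by more than an approximate standard error of that gene's SD. These 61 fell on 38 of the 50 genes. The 824 include the settings of filter, mean and median, which change only which genes are kept, so a gene's own SD could not move there. The cause was not tested. No paired analysis was possible because the lymphomas were described as 1 group and no result comes from a test. Alternatives without other-breed 1 and 2 and those of the windows were added after seeing the data. The number of libraries (6) limits every SD, and a gene under about 10 reads in a library has a large counting error there.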
